A study of Mus musculus with 8 samples.

Results

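The reads described here were small RNAs of 18 to 30 nt that came from small nucleolar RNAs (snoRNAs) and small Cajal body RNAs (scaRNAs) in NIH-3T3 cells, an immortalised line of mouse embryo fibroblasts. They were chosen from the deposited reads by sequence. After removal of the 3′ adapter and of marker-oligonucleotide reads, an insert was taken when it matched no miRNA hairpin and matched perfectly, on the sense strand, 1 of the 1558 snoRNA or scaRNA transcripts of GENCODE M21 (mouse build GRCm38). Of 3887356 kept reads (all inserts of 18 to 30 nt) in 8 libraries, 17868 (0.460%) met this rule. They made up 1686 distinct sequences and came from 310 genes, out of 1610 genes of miRNA, snoRNA, scaRNA and other small RNA types with a read. Genes were joined into 1 unit where at least 50% of the reads of one also matched another, which left 210 units, 49 of them made of several genes.

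The libraries came from 2 experiments with no further genetic change stated. In the serum experiment, cells kept in medium with 10% serum were starved for 48 h, were given 20% serum, and were taken at 0 h (labelled G0), 12 h (G1), 16 h (S), 20 h (G2/M) and 24 h (G1). In the contact experiment, cells were plated at 12% confluency and taken at day 0 (labelled asynchronous), day 3 and day 5 (both labelled G0). Each condition is 1 library, so no difference between 2 conditions has a replicate check. The labels set arrested cells (G0) beside cycling cells, which is the comparison used below.

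snoRNAs guide the chemical modification of other RNAs, mainly ribosomal RNA, in the nucleolus. C/D snoRNAs (Snord genes) carry a box C near the 5′ end and a box D near the 3′ end and guide 2′-O-methylation with the methyltransferase fibrillarin. H/ACA snoRNAs (Snora genes) fold into hairpins, end in an ACA box and guide pseudouridylation with the enzyme dyskerin. A few, such as U3, serve cleavage of the ribosomal RNA precursor instead. scaRNAs do the same kind of modification on spliceosomal RNAs in Cajal bodies. In mammals most snoRNAs are cut out of introns of host genes. Shorter pieces of snoRNAs have been found in small-RNA libraries of many cell types.

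The sequences that carry the pattern are shown first, as the GENCODE transcript 5′ to 3′, with the most frequent insert of each unit in capitals. The first 4 are C/D units that gave reads from the 3′ side, so that the capitals run up to and just past box D (CTGA). Gm24452 lies in an intron of Snhg1 (chr19:8724531-8724602, plus strand), Gm25789 in an intron of Gas5 (chr1:161038308-161038383, plus strand), Snord2 in an intron of Eif4a2 (chr16:23108953-23109021, plus strand) and Snord49b in an intron of 2410006H16Rik (chr11:62603079-62603150, plus strand).
Gm24452: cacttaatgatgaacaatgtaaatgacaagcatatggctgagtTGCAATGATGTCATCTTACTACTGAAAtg
Gm25789: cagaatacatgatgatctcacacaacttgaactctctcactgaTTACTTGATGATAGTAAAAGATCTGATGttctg
Snord2: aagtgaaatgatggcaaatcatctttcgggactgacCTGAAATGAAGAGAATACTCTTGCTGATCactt
Snord49b: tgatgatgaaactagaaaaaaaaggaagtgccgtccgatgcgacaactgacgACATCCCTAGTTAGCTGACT

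The next 3 are C/D units that gave reads from the 5′ side, so that the capitals start at the first base of the transcript. Gm23212 lies in an intron of Gas5 (chr1:161036682-161036741, plus strand), Gm24453 in an intron of Snhg1 (chr19:8724868-8724943, plus strand) and Snord57 in an intron of Nop56 (chr2:130278016-130278087, plus strand). In Gm23212 and Snord57 the capitals also end just past a CTGA, one that lies inside the transcript.
Gm23212: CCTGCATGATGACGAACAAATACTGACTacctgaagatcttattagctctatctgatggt
Gm24453: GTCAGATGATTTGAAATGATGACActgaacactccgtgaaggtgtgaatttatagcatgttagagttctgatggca
Snord57: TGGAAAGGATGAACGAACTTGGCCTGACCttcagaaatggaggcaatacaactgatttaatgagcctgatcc

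The last 4 are U3, which is a C/D RNA of another length and task, and 3 H/ACA units that gave reads from the 3′ end. The U3 copy shown lies at chr11:87448627-87448842 (plus strand) within the span of Tex14. Snora41 lies in an intron of Eef1b2 (chr1:63179004-63179135, plus strand), Snora61 in Snhg12, where 1 annotated transcript holds it in an exon (chr4:132310240-132310369, plus strand), and Snora75 in an intron of Ncl (chr1:86351169-86351301, minus strand).
U3: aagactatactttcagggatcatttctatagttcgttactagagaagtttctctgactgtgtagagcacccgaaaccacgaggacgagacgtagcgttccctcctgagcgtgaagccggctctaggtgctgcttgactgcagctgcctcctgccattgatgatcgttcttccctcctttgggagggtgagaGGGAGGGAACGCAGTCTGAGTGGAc
Snora41: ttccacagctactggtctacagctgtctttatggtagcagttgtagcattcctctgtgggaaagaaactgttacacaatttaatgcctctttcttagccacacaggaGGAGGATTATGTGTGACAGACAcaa
Snora61: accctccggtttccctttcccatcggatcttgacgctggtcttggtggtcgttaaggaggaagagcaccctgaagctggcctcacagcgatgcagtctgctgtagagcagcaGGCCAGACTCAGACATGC
Snora75: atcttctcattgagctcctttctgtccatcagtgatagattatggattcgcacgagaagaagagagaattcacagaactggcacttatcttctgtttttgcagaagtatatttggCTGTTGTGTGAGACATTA

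Depth differed between the experiments. The serum libraries held 6121247 to 8512472 reads, of which 62.2% to 94.6% were taken to be marker oligonucleotides, and left 201081 to 1179126 kept reads. Serum 0 h, with 6121247 reads, also lost 1718702 of them as inserts under 16 nt, against 40125 to 73224 in the other serum libraries. The contact libraries held 707202 to 801593 reads, with at most 0.0389% markers, and left 445998 to 590886. Fibroblast miRNA hairpins (7 of 7 seen) took 4.59% to 25.8% of kept reads in the 8 libraries. Epithelial, muscle, blood, neural and pluripotent-cell hairpins stayed at or below 0.163%, 0.0397%, 0.0328%, 0.0695% and 0.0491%, and the liver hairpin Mir122 at or below 0.000338%.

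The snoRNA and scaRNA reads numbered 1934, 1465, 7304, 1354 and 1002 in the serum libraries at 0, 12, 16, 20 and 24 h. They numbered 1363, 1335 and 2111 in the contact libraries at days 0, 3 and 5. As a share of kept reads this was 0.533% (95% Clopper-Pearson interval 0.509 to 0.557) at 0 h, 0.513% (0.487 to 0.540) at 12 h, 0.619% (0.605 to 0.634) at 16 h, 0.511% (0.484 to 0.538) at 20 h and 0.498% (0.468 to 0.530) at 24 h. In the contact experiment it was 0.306% (0.290 to 0.322) at day 0, 0.240% (0.227 to 0.253) at day 3 and 0.357% (0.342 to 0.373) at day 5. These intervals cover counting error only, since the reads carry no molecular identifiers.

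Every serum library thus had a higher share than every contact library. Of the libraries labelled G0, contact day 3 had the lowest share of all 8, while serum 0 h and contact day 5 lay within the range of the other 5. The lowest serum share was 1.39 times the highest contact share (95% interval 1.31 to 1.48). Serum 0 h stood at 1.04 times the median released library, and days 3 and 5 at 0.785 and 1.17 times day 0. The direction for day 5 turned per hairpin read (0.985), with inserts of 20 to 28 nt (0.975) and without the unit with most reads (0.910), and that for day 3 over distinct inserts (1.3). Other RNA fragments, taken as sums, also had higher shares in the serum libraries. Pieces of long RNAs took 1.24% to 1.74% of kept reads in the serum libraries and 0.567% to 0.785% in the contact libraries. Pieces of rRNA, snRNA and other small RNAs together took 0.328% to 0.450% and 0.147% to 0.167%. Within that sum, snRNA pieces alone overlapped between the experiments (0.0222% to 0.0636% in serum, 0.0201% to 0.0547% in contact libraries), as did mitochondrial tRNA pieces (0.0128% to 0.0493%, 0.00471% to 0.0220%). The part of these other fragments in the difference was not tested, and fewer cells with such fragments cannot be told apart from fewer fragments per cell. Counted as distinct inserts rather than reads, the shares of the experiments overlapped. Serum libraries then ran from 0.171% (12 h) to 1.10% (16 h). Contact libraries ran from 0.819% (day 0) to 1.42% (day 5). The lowest serum library stood at 0.120 times the highest contact library.

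The number of distinct sequences behind these reads set the libraries further apart than the share did. The serum libraries held 87 (0 h), 28 (12 h), 855 (16 h), 197 (20 h) and 95 (24 h) distinct inserts, and the contact libraries 415, 477 and 620. At a common depth of 1002 reads, the expected numbers were 83.8, 27.7, 334, 186 and 95 in the serum libraries and 337, 392 and 367 in the contact libraries. The 12 h library saw only 12 units, with a median of 41 reads per insert, against 1 read per insert in each contact library. Zeros in the 12 h library, below, are thus zeros among 28 sequences.

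**Figure D1:**
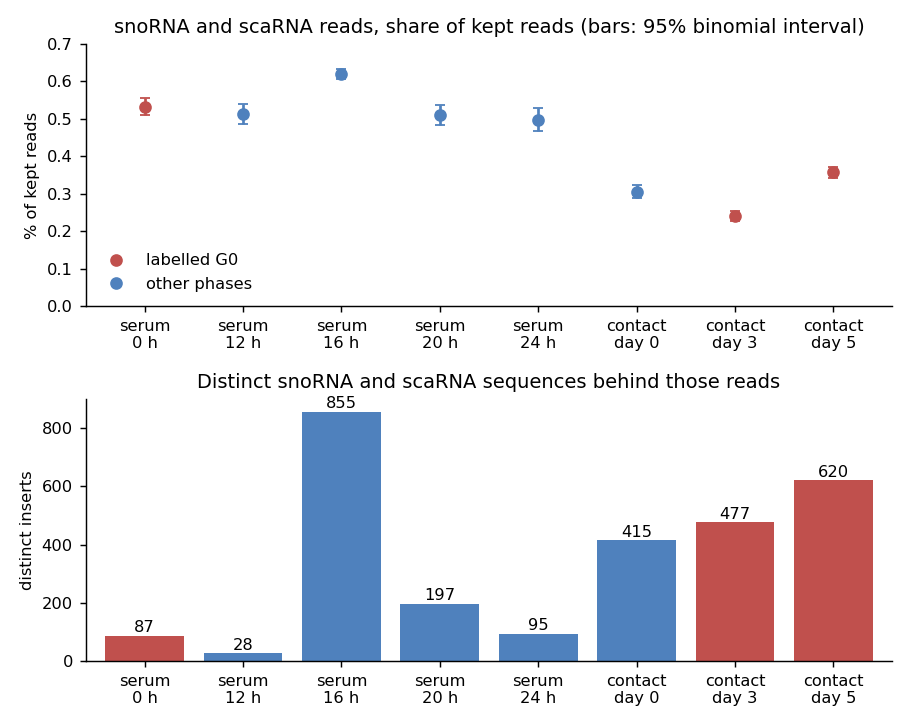
Upper panel, snoRNA and scaRNA reads as a percentage of kept reads in each library, with 95% Clopper-Pearson intervals. Lower panel, the number of distinct inserts behind those reads. Serum libraries lie at 0.498% to 0.619% and contact libraries at 0.240% to 0.357%, while the serum 12 h library holds 28 distinct inserts.

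The reads were concentrated in few genes. The unit with most reads held 17.9% of them, the first 3 units 42.1% and the first 20 units 74.7%. Only 7 units were seen in all 8 libraries, 30 had at least 100 reads and 29 had a single read. Units that lie inside a host gene on the same strand held 96.9% of the reads. Of all the reads, 63.2% also matched a longer annotated transcript that contains the snoRNA sequence, and 15.5% matched more than 1 gene symbol.

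C/D genes gave most of the reads. By symbol alone, 41.6% of the reads were C/D, 4.39% H/ACA and 0.694% scaRNA, and 53.3% came from units without a class in their name, most of them Gm symbols. The unnamed units were then classed by sequence: as C/D with TGATGA in the first 25 nt and CTGA in the last 20 nt, or as H/ACA with ACA near the 3′ end of a transcript of at least 100 nt. TGATGA with CTGA was found in 63.0% of named C/D transcripts, in 0 of the 42 named H/ACA transcripts and in 0.0852% of miRNA hairpins. CTGA alone in the last 20 nt was found in 98.1%, 11.9% and 9.37%. With both steps, C/D units held 89.9% of the reads (121 units), H/ACA units 5.89% (56 units), scaRNAs 0.694% (12 units) and unclassed units 3.47% (21 units). The C/D share ran from 84.5% (serum 24 h) to 93.5% (serum 12 h), and the H/ACA share from 4.36% (contact day 5) to 12.6% (serum 24 h).

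The 2 classes differed in length, and both differed from miRNAs. C/D reads had a median of 26 nt and peaked at 27 nt (16.6%) and 28 nt (20.5%), so that 53.3% of them were 26 to 30 nt long. H/ACA reads had a median of 21 nt, with 24.9% at 18 nt, the shortest length taken, and only 7.70% at 26 to 30 nt. Of the miRNA hairpin reads, 59.2% were 22 nt and 0.0527% were 26 to 30 nt. In every library more C/D reads than H/ACA reads were 26 to 30 nt long. That share of C/D reads was 32.2%, 42.9%, 55.1%, 48.0% and 42.4% at serum 0, 12, 16, 20 and 24 h, and 61.5%, 60.4% and 71.6% at contact days 0, 3 and 5. The contact libraries thus held the longer C/D pieces and all lay above the serum libraries, the highest of which was 16 h. Reads of 30 nt are the longest that the 36-nt reads could show with 6 adapter bases, so longer pieces were not seen.

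**Figure D2:**
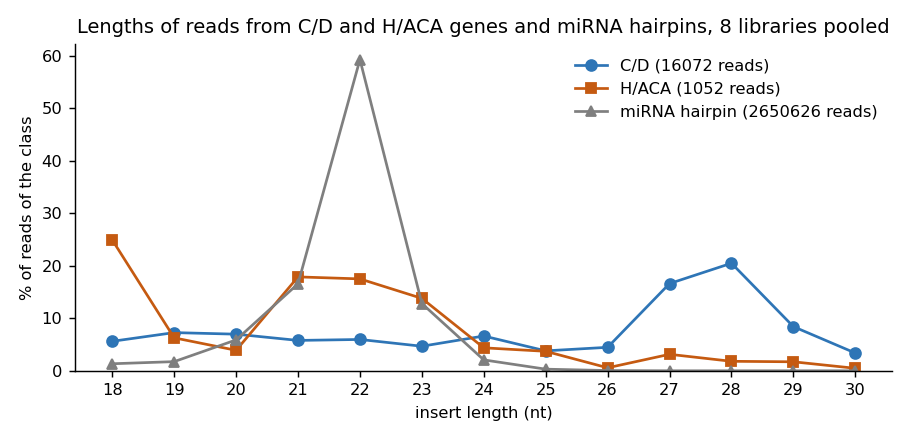
Insert length in nt against the percentage of reads of each class, with the 8 libraries pooled. C/D reads peak at 27 and 28 nt, H/ACA reads at 18 nt and at 21 to 22 nt, and miRNA hairpin reads at 22 nt. The 18-nt share of H/ACA reads was 69.3% at serum 0 h and 0% to 25.7% in the other libraries.

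First bases differed as well. A T (U in the RNA) stood first in 34.2% of C/D reads and 22.4% of H/ACA reads, against 65.1% of miRNA hairpin reads. G stood first in 24.3% of C/D reads, 30.7% of H/ACA reads and 1.68% of hairpin reads. Counted over distinct inserts, T stood first in 27.1% of C/D inserts and 30.7% of hairpin inserts, so the gap in T is one of reads.

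Most reads came from the 3′ side of their gene, meaning that the midpoint of the read lay past the midpoint of the transcript. The 3′ side gave 75.7% of all reads (95% interval 75.0 to 76.3). By library it gave 88.1%, 77.7%, 76.3%, 79.0% and 75.3% at serum 0, 12, 16, 20 and 24 h, and 66.3%, 53.8% and 78.7% at contact days 0, 3 and 5. Day 3 was thus the lowest and serum 0 h the highest. Gm23212, a unit with 5′ reads, gave 333 of the 1335 reads at day 3. Within 5 nt of an annotated end, 68.6% of all reads touched the 3′ end and 19.9% the 5′ end.

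Most units kept to the same side in the different libraries. Of the 65 C/D units with at least 20 reads, 28 had at least 90% of their reads from the 3′ side, 9 had at least 90% from the 5′ side, and 28 lay between. Of the 12 such H/ACA units, 9 were at least 90% from the 3′ side and none was at least 90% from the 5′ side. In 30 of the 32 units that had at least 20 reads in 2 or more libraries, the same side gave most of the reads in each of those libraries. Gm24452 ran from 91.6% to 100% 3′ over the 8 libraries, and Gm23212 from 0% to 6.42% over the 7 libraries with at least 20 of its reads. Gm26224, another unit of the Gas5 introns, switched, from 22% to 95.2% over 4 libraries.

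The 3′ ends of C/D reads most often lay 2 nt past box D. Of 16064 reads from C/D units with a CTGA in the last 20 nt, 47.4% ended exactly 2 nt past its last base, and 59.6% ended 0 to 4 nt past it. Another 12.6% ended 5 nt past it, where 6 units, U3 among them, had their main 3′ end. By library, the share ending 0 to 4 nt past box D ran from 32.2% (contact day 0) and 40.1% (day 3) to 72.2% (serum 0 h). Among 65 units with at least 20 reads, 2 nt was the commonest distance in 37. Of the C/D reads from the 3′ side, 63.1% had a CTGA exactly 2 nt before the end, against 3.43% of all 24-nt windows on that side of the same transcripts and 0.151% of miRNA hairpin reads.

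Reads from the 5′ side showed both ends of the same kind. Of 3991 such C/D reads, 81% began within 5 nt of the annotated 5′ end, and 55% had a CTGA exactly 2 nt before their own 3′ end, although box D lay further on. The share among all 24-nt windows on the 5′ side was 2.55%. Gm23212 carried much of this: without it the share was 25.8% of 2333 reads. Over distinct inserts, which count a sequence once, the share was 12.7% for the 5′ side and 38.0% for the 3′ side. In the sequences above, the capitals of Gm24452, Gm25789, Snord2, Snord49b, Gm23212 and Snord57 all end 2 nt past a CTGA.

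**Figure D3:**
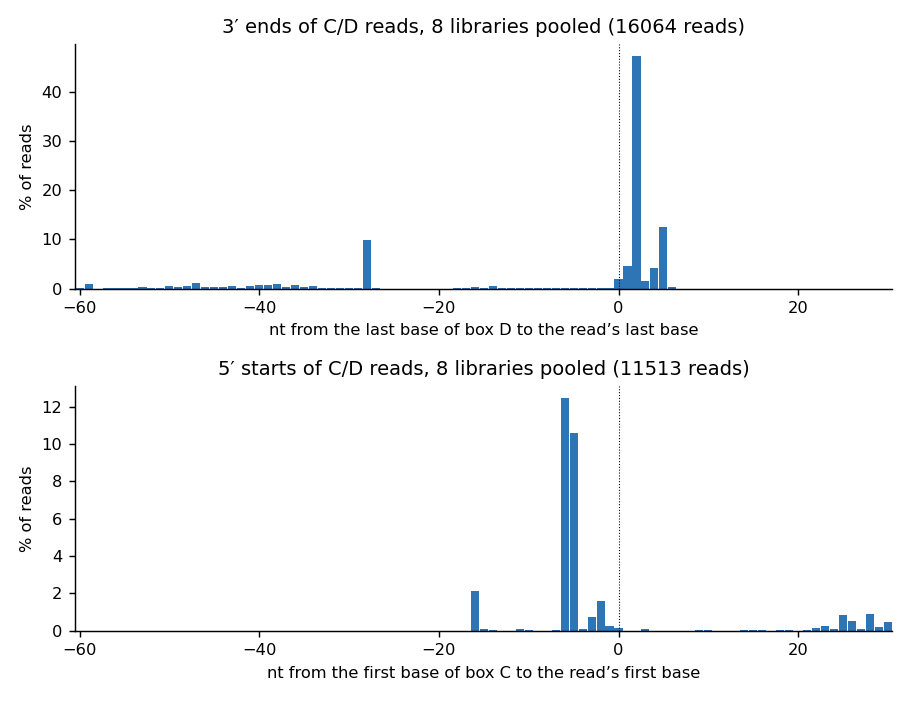
Position of read ends relative to the boxes of C/D units, in nt, against the percentage of reads (8 libraries pooled). The upper panel counts from the last base of box D, where 47.4% of reads end at +2 and the bar at -28 (9.92%) is 1 unit, Gm23212; the lower panel counts from the first base of box C, where 12.5% of reads start at -6 and 10.6% at -5.

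The largest group lay in the Snhg1 gene, a non-coding host whose introns hold C/D snoRNAs. Its 8 units gave 4499 reads, 25.2% of the snoRNA reads. Gm24452 held 3202 of them: 222, 495, 1370, 256 and 155 reads at serum 0, 12, 16, 20 and 24 h, and 73, 75 and 556 at contact days 0, 3 and 5. In read counts per 1000000 after TMM scaling (CPM; the scaling makes libraries comparable by assuming that most small RNAs do not differ), this was 750, 1878, 1432, 1294 and 1010 in the serum libraries and 399, 231 and 1903 in the contact libraries. In CPM, day 5 and serum 12 h were thus the highest, days 0 and 3 the lowest, and the libraries labelled G0 held the lowest value, the highest and one between. The TMM factors were 1.14 to 1.41 in the serum libraries and 0.642 to 0.822 in the contact libraries, so ranks across experiments depend on this scale. As a share of kept reads, day 5 (0.0941%) came after 12, 16 and 20 h (0.173%, 0.116% and 0.0965%), and days 0 and 3 stayed lowest. The Gm24452 reads were a nested set: 82.1% ended at position 70 of the 72-nt transcript, while 8 start positions had at least 10 reads each.

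The other Snhg1 units differed in side and in level. Gm22680, Gm25855 and Snord22 gave 3′ reads (99.4%, 97.8% and 97.6% of 321, 277 and 123 reads). Gm24453 and Gm25894, with 304 and 115 reads, gave 5′ reads, with only 3.3% and 10.4% from the 3′ side. Gm24453 had 0, 109, 121, 7 and 21 reads at serum 0, 12, 16, 20 and 24 h and 5, 24 and 17 at contact days 0, 3 and 5. All 109 reads at 12 h were 1 sequence, while the 121 reads at 16 h were 17 sequences.

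Gas5, a non-coding RNA known to accumulate in growth-arrested cells, hosted 9 units with 3473 reads, 19.4% of the snoRNA reads. Gm23212 held 1723 of them: 18, 158, 634, 109 and 155 reads at serum 0, 12, 16, 20 and 24 h, and 283, 333 and 33 at contact days 0, 3 and 5. The CPM were 60.8, 600, 663, 551 and 1010 in the serum libraries and 1547, 1024 and 113 in the contact libraries. Serum 0 h and contact day 5 were the lowest of the 8, while in CPM day 3, also labelled G0, was the second highest after day 0 and 24 h came close behind it. As a share of kept reads, 24 h was the highest (0.0771%), before day 0 (0.0635%) and day 3 (0.0598%), and serum 0 h and day 5 stayed lowest. The 18 reads at serum 0 h were 1 sequence. A single 3′ end, position 28, took 92.5% of the reads.

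Gm25789, the last snoRNA in Gas5, gave 777 reads, nearly all from the 3′ side (99.6%). It had 130, 0, 361, 35 and 38 reads at serum 0, 12, 16, 20 and 24 h and 15, 45 and 153 at contact days 0, 3 and 5. Its CPM were 439, 0, 377, 177 and 248, then 82.0, 138 and 524, so that in CPM 2 of the 3 libraries labelled G0 were the highest and the third lay low. As a share of kept reads, serum 16 h (0.0306%) came between serum 0 h (0.0358%) and day 5 (0.0259%). Mir5117, which GENCODE types as a snoRNA although its symbol is that of a miRNA, lies between Gm23212 and Gm25789. It gave 424 reads, 93.6% from the 3′ side, with 75, 0, 221, 16 and 18 in the serum libraries and 32, 26 and 36 in the contact libraries. Gm22357 gave 104 reads, 89 of them at serum 0 h. Neighbours in 1 host transcript thus differed in which side they left, in their reads and in the libraries where they were high.

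**Figure D4:**
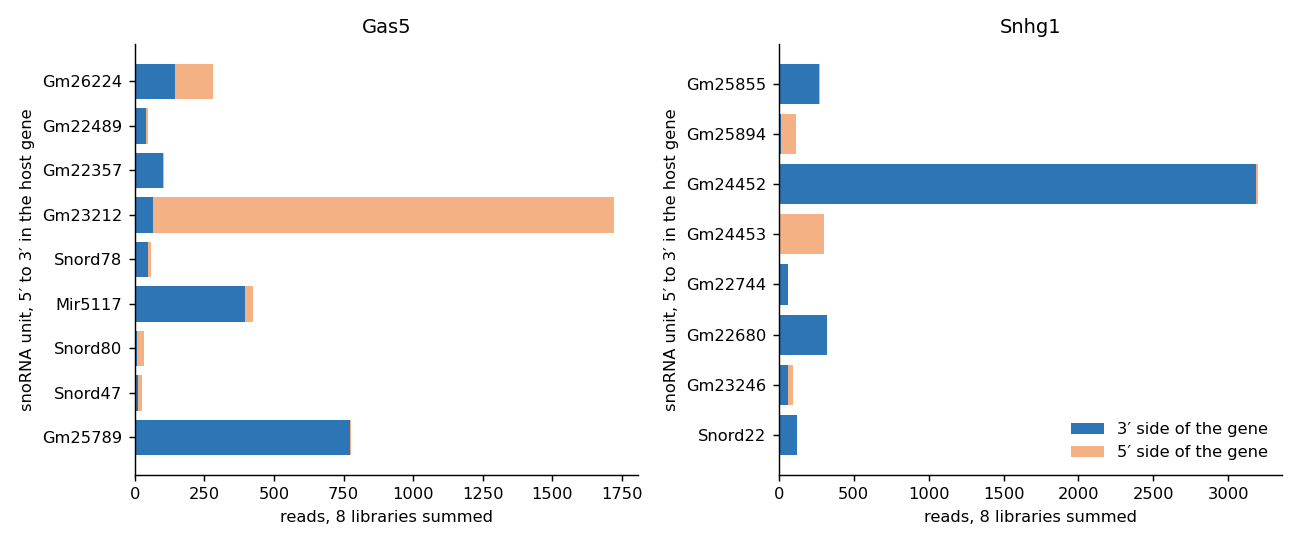
Reads summed over the 8 libraries for each snoRNA unit in Gas5 and Snhg1, in order along the host gene, split by the side of the gene the read came from. Gm24452 (3202 reads) is almost all 3′ side and Gm23212 (1723 reads) almost all 5′ side.

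The RNAs that serve processing of the ribosomal RNA precursor gave 2965 reads in 7 units, 2598 of them U3. U3 reads match Rnu3a, Rnu3b1 to Rnu3b4 and predicted copies, which cannot be told apart here. U3 had 319, 351, 820, 212 and 201 reads at serum 0, 12, 16, 20 and 24 h and 410, 143 and 142 at contact days 0, 3 and 5. The CPM were 1078, 1332, 857, 1071 and 1310 in the serum libraries, and 2242, 440 and 486 in the contact libraries. In CPM, the serum libraries lay close together, day 0 lay above all of them, and days 3 and 5 below. As a share of kept reads, day 0 (0.0919%) lay within the serum range (0.0695% to 0.123%). Days 3 and 5 (0.0257% and 0.0240%) lay below the serum range on that scale too. U3 reads ended at position 215 of 216 in 69.1% of cases but started at 15 positions with at least 10 reads each.

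The other members of that list were Snord22, also in Snhg1, with 123 reads, Snora73a and its copies with 105, Snord118 (U8) with 73, the pair Snord14c and Snord14d with 40, Snord14e with 25 and Snord13 with 1. The Rpl13a introns, a host of C/D snoRNAs studied in stress, gave only 46 reads in 4 units (Snord33, Snord32a, Snord34 and Snord35a), none of them at serum 0, 12 or 24 h.

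Outside these hosts, Snord2 had 96, 0, 361, 74 and 47 reads at serum 0, 12, 16, 20 and 24 h and 21, 68 and 202 at contact days 0, 3 and 5. Its CPM ran from 0 at 12 h to 691 at day 5, with a median of 315. Snord49b had 201, 60, 355, 38 and 43 reads in the serum libraries and 15, 19 and 33 in the contact libraries. It was highest at serum 0 h (679 CPM) and all 3 contact libraries (82.0, 58.4 and 113 CPM) lay below all 5 serum libraries (192 CPM or more). Snord49a, beside Snord49b in the same host, ran from 0 to 170 CPM, with 314 reads.

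Other units among the 20 with the largest mean share had 0 reads in 1 or more libraries. Snord17, a long C/D RNA in an intron of Snx5, had 62, 0, 71, 21 and 0 reads at serum 0, 12, 16, 20 and 24 h and 6, 8 and 53 at contact days 0, 3 and 5, and 93.7% of its reads ended at position 236 of 238. Snord87, in an intron of Snhg6, had 21, 0, 103, 45 and 8 reads, then 10, 12 and 29. The unit of Gm22192, in an intron of Pip5k1a, had 14, 0, 37, 9 and 0 reads, then 36, 29 and 40, so that its CPM were higher in all 3 contact libraries (89.2 to 197) than in any serum library (at most 47.3). Snord37 went the other way, with 24, 57, 31, 3 and 0 reads in the serum libraries and 0, 0 and 1 in the contact libraries.

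Besides Gm23212, Gm24453 and Gm25894, the units with at least 100 reads that left mainly their 5′ side were AF357428 with its copy (28.1% of reads from the 3′ side), Snord57 (5.88%) and Snord69 (0.935%). Snord57, in an intron of Nop56, which encodes a protein of C/D particles, had 42, 0, 44, 18 and 0 reads at serum 0, 12, 16, 20 and 24 h and 4, 5 and 6 at contact days 0, 3 and 5. Its main 3′ end, position 29, took 84.9% of them. Snord69, in an intron of Gnl3, which encodes nucleostemin, had 9, 0, 50, 6 and 7 reads, then 8, 21 and 6, and 75.7% of them ended at position 34 of 80.

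**Figure D5:**
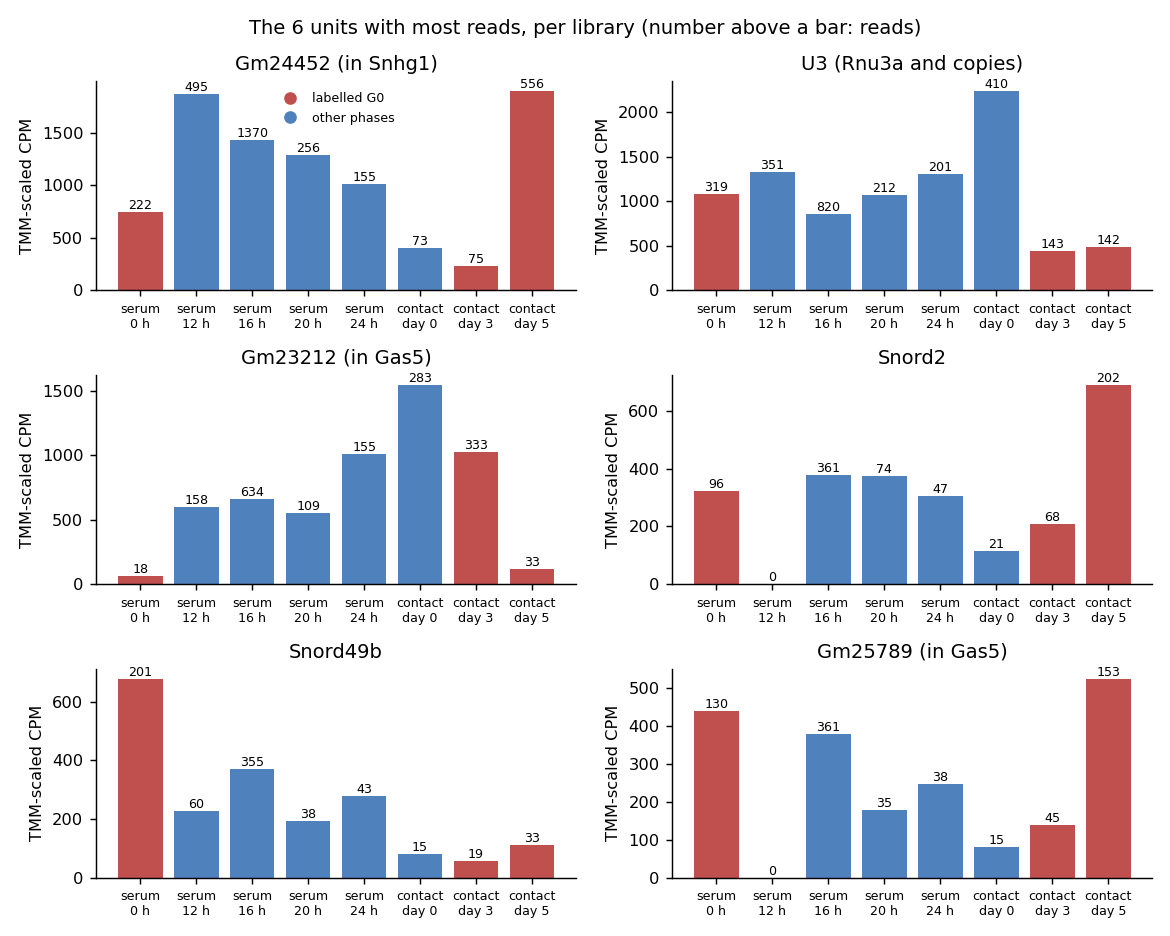
TMM-scaled CPM of the 6 units with most reads in each library, with the read count above each bar. Gm23212 is lowest at serum 0 h (18 reads) and contact day 5 (33 reads), and U3 falls from 410 reads at contact day 0 to 143 and 142.

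H/ACA units gave far fewer reads. Snora41 with its copy had 0, 0, 56, 22 and 17 reads at serum 0, 12, 16, 20 and 24 h and 15, 22 and 7 at contact days 0, 3 and 5. Its main read was 22 nt, had ACA as its last bases and ended 3 nt before the 3′ end of the transcript, and 92.8% of its reads began at position 108 of 132. Snora61 had 23, 0, 50, 16 and 25 reads in the serum libraries and 3, 2 and 2 in the contact libraries, and all of its reads ended at the last base. Snora73a with its copies had 0, 0, 39, 31 and 19 reads, then 3, 11 and 2. Snora75 with its copy had 96, 0, 5, 0 and 4 reads, then 1, 0 and 8. All the reads of these 4 units came from the 3′ side.

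scaRNAs were at the edge of detection, with 124 reads in 12 units. The most were 39 for Gm25395 and 37 for Scarna6. Per library they took 0.299% (serum 24 h, 3 reads) to 1.33% (contact day 5, 28 reads) of the snoRNA and scaRNA reads. Of their pooled reads, 21% came from the 3′ side (95% interval 14.2% to 29.2%, counting error only), against 75.2% of C/D and 90.5% of H/ACA reads. By library this ran from 0% (serum 0 and 12 h, contact day 0) to 71.4% of 14 reads at 20 h and 100% of 3 reads at 24 h. Of the 3 scaRNA units with at least 20 reads, 1 had at least 90% from the 5′ side and 2 lay between. The list set for imprinted loci gave 232 reads in 5 units. AF357428 with its copy (146 reads) and AF357341 (76 reads) lie on chromosome 12 and gave 0 reads at serum 0, 12 and 24 h, but 84 and 51 at 16 h. The list was taken by name and leaves out other units of the same stretch of chromosome 12. One of them, Gm23736, lies between these 2. Its reads were 26, 0, 19, 0 and 0 at serum 0, 12, 16, 20 and 24 h. At contact days 0, 3 and 5 it had 3, 4 and 26. AF357428 with its copy had 8, 17 and 26 reads on those days, and AF357341 had 8, 5 and 11. Gm23736 shared their 0 reads at 12 and 24 h but differed at 0 h, where its 26 reads were 3 distinct inserts. AF357399, taken into that list by its name alone, lies on chromosome 7 in Rps16 and gave 1 read. By counting error alone, a count of 0 allows up to 3 counts, which is 8.26, 10.5 and 14.9 per 1000000 kept reads at serum 0, 12 and 24 h. A distinct insert had a median of 13, 41 and 6 reads in those libraries, so 1 missed sequence can exceed this floor.

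Set against the other 5 libraries, the 3 libraries labelled G0 gave no call among the snoRNA and scaRNA units. The test was edgeR's quasi-likelihood test with the experiment as a term, over all 331 small RNA units with at least 10 CPM in 3 libraries, and Benjamini-Hochberg adjustment over all of them. It called 2 units (0.604% of those tested), neither of them among the 68 snoRNA and scaRNA units. At an unadjusted p under 0.05 it found 4 of the 68, and 34 (10.3%) of all 331. The DESeq2 Wald test on the same counts called 13 units (3.93%), 1 of them a snoRNA. Because conditions have no replicates, these p-values measure the spread between libraries of different times and phases, and no source says whether the libraries were separate cultures.

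Gm23212 had the smallest adjusted p. Its log2 fold change, G0 minus other, was -2.50 (SE 0.81, adjusted p = 0.201, edgeR), from a mean of 399 CPM in G0 libraries and 874 in the others. It was the unit called by DESeq2, at -2.50 (adjusted p = 0.0352), and, leaving out contact day 3, by edgeR at -3.62 (adjusted p = 0.000745). With all libraries the groups overlap, since day 3 lay within the range of the other libraries. U3 had -1.03 (SE 0.49, adjusted p = 0.468, edgeR) and Snora75 4.10 (SE 1.81, adjusted p = 0.387, edgeR). Snora75 ran from 0.10 over distinct inserts to 5.45 without contact day 0 among the alternatives that tested it. The fourth, Gm22571 in an intron of Rpl4, had 0 reads in the 3 libraries labelled G0 and 0, 36, 9, 0 and 4 in the others (serum 12, 16, 20 and 24 h and contact day 0). For Gm24452, the unit with most reads, the sign of the difference itself depended on the libraries used.

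Over the 68 units, 28 were higher in G0 libraries, with a median log2 fold change of -0.67, against -0.20 over all 331 units. With kept reads in place of TMM scaling these medians were -0.53 and -0.01, so the choice of scale moved both. The sign of the snoRNA and scaRNA median did not hold: without the experiment term 38 of 68 were positive (median 0.17), and without serum 0 h 33 of 66 (median 0.01). Over distinct inserts 62 of 133 were positive (median -0.05). None of the 68 units had all G0 libraries above or all below the other libraries. This was not counted over all 331 units, so it has no background beside it. The median SE of a log2 fold change was 2.09 for the snoRNA and scaRNA units and 0.675 for miRNAs. By list, 3 of 8 tested Gas5 units were positive (median -1.06), 5 of 8 Snhg1 units (median 0.09), 0 of 6 units of precursor processing (median -1.46), 0 of 2 on the imprinted list (median -2.08, while the unlisted neighbour Gm23736 had 2.87, SE 1.73, adjusted p = 0.627, edgeR) and 2 of 3 scaRNA units (median 0.15). No unit of these lists was called, and no Rpl13a unit was abundant enough to be tested. A term for G0 by experiment, testing for a G0 effect of another size after serum than after contact arrest, was called by edgeR for 1 of the 331 units (0.302%) and for 0 of the 68, with 2 of the 68 at an unadjusted p under 0.05, against 14 (4.23%) of the 331. DESeq2 likewise called 1 of the 331 (0.302%) and 0 of the 68, with 2 of the 68 and 21 (6.34%) of the 331 at an unadjusted p under 0.05.

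Within the serum experiment, single libraries were compared by ratios of CPM. A unit was counted when serum 0 h was at least 2-fold above, or below, each of the 4 released libraries with every 95% interval clear of 1. Units with at least 50 reads in 1 of these libraries were used. Of 28 such snoRNA and scaRNA units, 3 were counted as higher and 2 as lower at 0 h, and over all 251 small RNA units 21 (8.37%) were higher and 11 (4.38%) lower. Both counts are near that background.

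The 3 higher units were Gm22357, Snora75 and Gm25744, a C/D unit in an intron of 1110038B12Rik. Gm22357 had 89 reads at 0 h against 0, 6, 6 and 0 at 12, 16, 20 and 24 h, and its closest ratio was 9.91 (95% interval 4.38 to 27.7), to 20 h. Snora75, with 96 reads at 0 h, had its closest ratio to 24 h, at 12.4 (4.70 to 46.6). Gm25744, with 65 reads at 0 h and 17, 31, 3 and 12 later, had its closest ratio to 24 h, at 2.81 (1.5 to 5.71). At 0 h each of these 3 units was a single sequence: all 89, all 96 and all 65 reads were 1 insert. Whether such reads are copies of 1 molecule was not tested.

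The 2 lower units were Gm23212 and Gm24453, both of which give 5′ reads. Gm23212 was 9.86-fold (95% interval 6.04 to 17.1), 10.9-fold (6.84 to 18.5), 9.06-fold (5.47 to 15.9) and 16.6-fold (10.2 to 28.8) higher at 12, 16, 20 and 24 h than at 0 h. At those times its reads were 2, 25, 10 and 4 distinct sequences, against 1 at 0 h. Gm24453 had no read at 0 h, and with a floor of 3 counts there it was at least 3.49-fold higher in the closest comparison, to the 7 reads at 20 h. That floor covers counting error only, and a distinct insert had a median of 13 reads at 0 h. Gm24452 also lay lower at 0 h than in each released library, by 1.35-fold (1.09 to 1.66) at 24 h to 2.50-fold (2.13 to 2.95) at 12 h, which is under the 2-fold limit in part. U3 did not share this order: its ratios of 0 h to the released libraries ran from 0.809 to 1.26.

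Within the contact experiment, 8 snoRNA units had enough reads. By the same rule 1 was higher and 1 lower on both days 3 and 5 than on day 0, while over all 181 small RNA units 29 (16.0%) were higher and 15 (8.29%) lower. Both counts lie close to that background. The higher unit was Gm25855, in Snhg1, with 6 reads at day 0 and 31 and 67 at days 3 and 5, ratios of 2.91 (95% interval 1.19 to 8.52) and 6.99 (3.05 to 19.7). The lower unit was U3, 5.10-fold (4.2 to 6.21) and 4.61-fold (3.80 to 5.62) higher at day 0 than at days 3 and 5.

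Days 3 and 5 differed from each other in several units, although both are labelled G0. Gm24452 stood at 0.578 times day 0 (95% interval 0.413 to 0.809) on day 3 and 4.77 times (3.73 to 6.17) on day 5. Gm23212 stood at 0.662 times (0.563 to 0.778) on day 3 and 0.0730 times (0.0493 to 0.105) on day 5. Snord2 and Gm25789 stood at 6.02 times (3.83 to 9.94) and 6.38 times (3.75 to 11.7) on day 5. At day 5 Gm24452, with 3′ reads, had 556 reads and Gm23212, with 5′ reads, 33. At day 3 they had 75 and 333.

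The units most like Gm24452 over the 8 libraries, by Spearman's rho of CPM among the other 29 units with at least 100 reads, were Gm22680 (0.57), Snord37 (0.54) and Snord2 (0.45). Gm22680 lies in the same host gene, while Snord37 is in an intron of Eef2, with 116 reads, 57 of them 1 sequence at serum 12 h. Gm23212 had -0.55 and Snord69, another unit with 5′ reads, -0.67. Other units with mainly 5′ reads lay at 0.40 (Gm24453), 0.37 (AF357428 with its copy), 0 (Gm25894) and -0.13 (Snord57). Snord22, with 3′ reads, had -0.53, so the values did not follow the side. These are descriptions over 8 points that share the scaling of each library.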

How the data were processed

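Small RNAs of NIH-3T3 cells were sequenced in 8 libraries, 1 per condition. The deposited files give each distinct 36-nt read with its count, an unnormalised number of reads, and the 3′ adapter is still in the read. Library preparation is given in the labels only by citation. No source used here names the authors' read caller, filters, aligner or genome build.

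Adapters were trimmed in Python 3.11.15 where at least 6 bases were seen (1 mismatch per 8 bases). Inserts sharing 12 bases with, or within 3 edits of (edlib 1.3.9.post1), the marker oligonucleotides of 18 and 30 nt were dropped, as were reads with 5′ adapter or ambiguous bases. Inserts of 18 to 30 nt were kept. The reference was GENCODE M21 (GRCm38), with 1174 miRNA hairpins of Mir symbols, 1507 snoRNA and 51 scaRNA transcripts; Mir5117, typed snoRNA there, stayed in. Coordinates are 1-based from that annotation. A read that matches several copies was counted once, in 1 unit.

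The G0 test was edgeR 4.0.16 (R 4.3.3; glmQLFit, glmQLFTest, TMM scaling, experiment as a term) over all units with at least 10 CPM in at least 3 libraries, called at a Benjamini-Hochberg adjusted p under 0.05. It was 2-sided and was tested on simulated data. Each SE is derived from the fold change and the F value. The alternatives were DESeq2 1.42.0, other scalings, filters, read sets and leaving out each library. Single libraries were compared by CPM ratios with 95% exact conditional binomial intervals, for units with at least 50 reads in 1 of them, and shares with 95% Clopper-Pearson intervals (scipy 1.17.1). A count of 0 was given a floor of 3 counts per library. Intervals and floors cover counting error only.

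Members and lists were chosen with earlier results of these data known. Lists by host gene (Gas5, Snhg1, Rpl13a) were taken by position, since GENCODE names most of these snoRNAs by Gm symbols. The others were RNAs of ribosomal precursor processing, imprinted loci and scaRNAs. Units named are the 20 with the largest mean share of kept reads, those called in the G0 test, those counted in single-library comparisons, the list members with most reads and the 3 most like the most abundant unit. One of these units is not reported here. Gm22571, Gm23736, Snord57, Snord69 and the H/ACA units other than Snora61 and Snora75 were named after their values were seen.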

Additional observations from a re-analysis of the deposited data

Results flagged for a closer look

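Reads outside the main count were seen in 2 sets. Across the 8 libraries, 2007 reads matched both a miRNA hairpin and a snoRNA or scaRNA gene and were set aside by the rule. Mir1839 held 1584 of them, Mir3068 238, the pair Snora36b and Mir664 66, and Snora19 with Mir3084-1 65. Antisense matches to a snoRNA or scaRNA gene numbered 15 reads, 12 of them in the serum 16 h library, which has the most kept reads.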

How the results depend on the processing

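With 1 library per condition, no difference between conditions can be separated from a difference between libraries. No paired analysis was possible because each condition has a single library and no shared replicate numbers.

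In the G0 test, DESeq2 called 1 snoRNA unit and 13 units in all, and no filter, no experiment term and distinct inserts (added after seeing the data) gave 0 snoRNA units and 7, 1 and 0 in all. Leaving out 1 library gave 0 to 1 snoRNA unit (the 1 without contact day 3) and 0 (without serum 0 h) to 7 units in all. Gm24452 changed sign to -0.33 without the experiment term, and ran from -0.91 (without contact day 0; -0.88 without day 5) to 1.43 (without serum 0 h) with 1 library left out. Gm23212 stayed negative in all 18 alternatives (-3.62 to -1.01), U3 too (-2.27 to -0.08).

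The units higher at serum 0 h numbered 7 at a minimum of 20 reads and 0 at 100 reads, and 3 to 5 when 1 library was left out (5 without 16 h). The contact units higher numbered 3 with kept reads as the scale, 0 at 100 reads, 2 with inserts of 20 to 28 nt, and 0 (without day 5) to 5 (without day 3) with 1 library left out. The contact units lower numbered 2 at 20 reads, 0 with reads that match 1 gene only (U3 reads match several), and 1 to 2 with 1 library left out. The number of units with enough reads, and the count over all small RNA units, are given for the main setting only. Whether the counts at the other settings differ from background was therefore not tested. Gm22357, Snora75 and Gm25744 had 89, 96 and 65 reads at 0 h, and Gm25855 had 67 at contact day 5. These units thus lay under the minimum of 100 reads.

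For the share of kept reads, serum 0 h over the released libraries became 1.13 without the unit with most reads and 0.562 over distinct inserts. Contact day 3 over day 0 became 0.705 per hairpin read and turned to 1.3 over distinct inserts. Contact day 5 over day 0 turned to 0.985 per hairpin read, 0.975 with inserts of 20 to 28 nt and 0.910 without the unit with most reads, and became 1.01 with 8 adapter bases and 1.73 over distinct inserts. The lowest serum over the highest contact library became 1.64 per hairpin read, 1.5 with 8 adapter bases and 1.18 without the unit with most reads. Over distinct inserts it was 0.120, where the shares of the serum and contact libraries overlapped.

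The 3′ share of reads became 68.6% over distinct inserts, 70.5% without the unit with most reads, 77.5% within 5 nt of an end, 74.3% without U3 and 73.8% without serum 0 h and 12 h. H/ACA as a share of C/D plus H/ACA reads, 9.55% by symbol, became 6.14% with box motifs added, 14.4% over distinct inserts and 14% without U3. The cause of these changes was not tested.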
